A study of Homo sapiens with 12 samples.

Results

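The genes described here encode the protein-folding machinery of the endoplasmic reticulum (ER): 12 genes of the Hsp70, Hsp90 and J-protein system, 2 CRELD genes, 4 genes of the lectin cycle, 17 disulfide isomerases, oxidases and related thioredoxin-like proteins, and 5 proline isomerases. They were chosen by function from a list of 40 gene symbols, and a symbol was kept if it stood in all 3 deposited tables with a mean of at least 1 FPKM over the libraries used. FPKM, fragments per kilobase of transcript and per unit of mapped fragments, measure RNA level with a correction for length. All 40 genes were found and kept, of 23153 genes shared by the 3 tables and 11075 that reached the same mean. Expression was measured by sequencing of messenger RNA in K562 cells, a human leukemia line with erythroid and megakaryocytic features, grown with or without fatty acids bound to albumin.

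The libraries came from 3 experiments, with 1 table each. In experiment 1, wild-type cells stayed untreated, received 0.2 mM palmitate, a saturated fatty acid, or received palmitoleate, a monounsaturated fatty acid of the same chain length, at a dose that is not given in the sources used here. In experiment 2, wild-type cells stayed untreated, received palmitate, or received palmitate and palmitoleate together, and cells labelled GPAT4ko, with a knockout of a glycerol-3-phosphate acyltransferase, received palmitate. In experiment 3, wild-type cells and cells labelled RNF213kd, with a knockdown of a large ubiquitin ligase, were each compared untreated and with palmitate. Treatment lasted 20 h by the labels, and 16 h by the legends in the tables of experiments 2 and 3. There were 3 libraries of untreated wild type, 3 of wild type with palmitate, and 1 of every other group. Each library held RNA of 3 biological replicates pooled before library preparation, so that the spread between experiments is the only replicate error. How the knockout and the knockdown were made, and whether either is a single clone, is not given in the sources used here.

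Proteins that enter the secretory pathway fold in the ER with the help of BiP, the ER member of the Hsp70 family, which binds exposed hydrophobic stretches and is driven by J-proteins and nucleotide exchange factors. Glycoproteins are held by the lectins calnexin and calreticulin, disulfide bonds are made and rearranged by the protein disulfide isomerases and their oxidases, and prolyl bonds are turned by cyclophilins and FKBP proteins. When unfolded proteins build up, the sensors ATF6, IRE1 (gene ERN1) and PERK (gene EIF2AK3) start the unfolded protein response, in which the transcription factors ATF6 and XBP1 raise the transcription of many of these genes through ER stress response elements in their promoters.

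The promoter stretches below hold such elements, and they are shown because the genes that carry them run from large to small palmitate ratios in this group. The window of 250 bases before the RefSeq start site (GRCh38.p14) was searched on both strands for the ER stress response element, ERSE, whose parts CCAAT and CCACG lie 9 bases apart, and for ERSE-II, whose parts ATTGG and CCACG lie 1 base apart. These parts are in capitals, and a match on the opposite strand reads as CGTGG followed by ATTGG for ERSE and as CGTGG followed by CCAAT for ERSE-II.
HSPA5: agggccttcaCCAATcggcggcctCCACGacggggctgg
HSP90B1: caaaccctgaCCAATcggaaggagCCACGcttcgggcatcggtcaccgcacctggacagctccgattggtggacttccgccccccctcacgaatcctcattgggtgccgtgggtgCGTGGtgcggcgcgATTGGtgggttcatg
CRELD2: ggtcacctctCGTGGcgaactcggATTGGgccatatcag
ERO1LB: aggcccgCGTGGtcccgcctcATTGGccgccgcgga
CALR: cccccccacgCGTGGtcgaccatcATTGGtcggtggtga
CANX: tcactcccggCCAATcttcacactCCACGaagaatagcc
PDIA6: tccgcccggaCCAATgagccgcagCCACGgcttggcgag
HYOU1: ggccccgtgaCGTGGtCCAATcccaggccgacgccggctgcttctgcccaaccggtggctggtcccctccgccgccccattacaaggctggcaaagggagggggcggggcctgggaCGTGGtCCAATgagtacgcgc
SDF2L1: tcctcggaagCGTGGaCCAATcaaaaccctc
The HSPA5 stretch lies at chr9:125241381-125241419 (minus strand), the HSP90B1 stretch, which holds 2 matches, at chr12:103930206-103930349 (plus strand), and the CRELD2 stretch at chr22:49918544-49918582 (plus strand). Those of ERO1LB, CALR and CANX lie at chr1:236282173-236282208 (minus strand), chr19:12938374-12938412 (plus strand) and chr5:179698768-179698806 (plus strand). PDIA6 has its stretch at chr2:10812843-10812881 (minus strand), HYOU1, with 2 ERSE-II matches, at chr11:119057264-119057400 (minus strand) and SDF2L1 at chr22:21642104-21642134 (plus strand).

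A promoter entry was matched for 37 of the 40 genes, all but DNAJC1, PDIA3 and FKBP14. ERSE was found in 7 of the 37 (18.9%) and in 25 of all 27305 promoters of the same length (0.0916%), so that 7 of the 25 promoters with the full element belonged to this group. ERSE-II stood in 2 of 37 (5.41%) against 0.0659% of all promoters. The 7-letter core TGACGTG of the unfolded protein response element was found in 3 of 37 (8.11%), HYOU1, DNAJC10 and TXNDC5, against 2.05% of all, and TGATG followed 1 base later by AAT, a core of the element bound by ATF4, in 0 of 37 against 1.09% of all. CCAAT alone, which is also the first part of ERSE, stood in 25 of 37 (67.6%) against 37% of all promoters. All promoters include those of genes below the expression limit, which the 37 do not. Among the 8656 tested genes with a promoter entry, ERSE stood in 0.173%, ERSE-II in 0.127% and TGACGTG in 2.85%. The ATF4 core stood in 0.566% of these tested genes and CCAAT in 42.5%. These matches describe letters in a window of fixed length and are not a measure of binding.

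The libraries were checked before the comparisons. AGPAT6, as the files name GPAT4, was at 21.0, 20.0 and 18.0 FPKM in the wild-type libraries of experiment 2 that were untreated, given palmitate and given both fatty acids, and at 8.77 FPKM in the GPAT4 knockout with palmitate. RNF213 was at 1.96 and 3.08 FPKM in wild type without and with palmitate in experiment 3, and at 1.39 and 1.54 FPKM in the knockdown. Its RNA was thus only partly lower in the libraries labelled as knockdown, and untreated wild type of experiment 2, scaled in another table, was at 1.49 FPKM. This touches each comparison with the knockdown below. All 10 markers of K562 cells were at 1 FPKM or more in every library. Of 18 markers of other cell types, 14 stayed under 1 FPKM in every library, 3 of these at 0 throughout, and CD3D, LYZ and EPCAM were at 1 FPKM or more in every library. The summed level of the 18 was 138, 74.9 and 112 FPKM in untreated wild type of experiments 1, 2 and 3 and 126, 59.9 and 76.7 FPKM with palmitate, lower in each experiment, and its part in the palmitate ratios was not tested. Libraries summed to between 612355 and 821188 FPKM. Depth is unknown, since FPKM carry no read counts, and in bulk RNA a change in each cell and a change in the mixture of cells cannot be told apart.

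The 40 genes together made up 0.416%, 0.473% and 0.485% of the summed FPKM of the untreated wild-type libraries of experiments 1, 2 and 3. With palmitate their share was 0.891%, 1.20% and 1.07%, and their summed level was 2.49, 2.51 and 2.19 times that of the untreated library of the same experiment. All 3 palmitate libraries lay above all 3 untreated ones in share. The group's makeup also differed: HSPA5 alone was 4.51%, 4.28% and 4.44% of the group's summed FPKM in untreated cells and 17.3%, 16.7% and 13.1% with palmitate. The Hsp70 system made up 26.6%, 28.3% and 31.8% of the sum without palmitate and 50.1%, 48.5% and 47.8% with it, while the disulfide class went from 32.8%, 37.2% and 34.2% to 19.1%, 24.5% and 24.5%. These shares are descriptions of sums, and they were not tested.

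**Figure D1:**
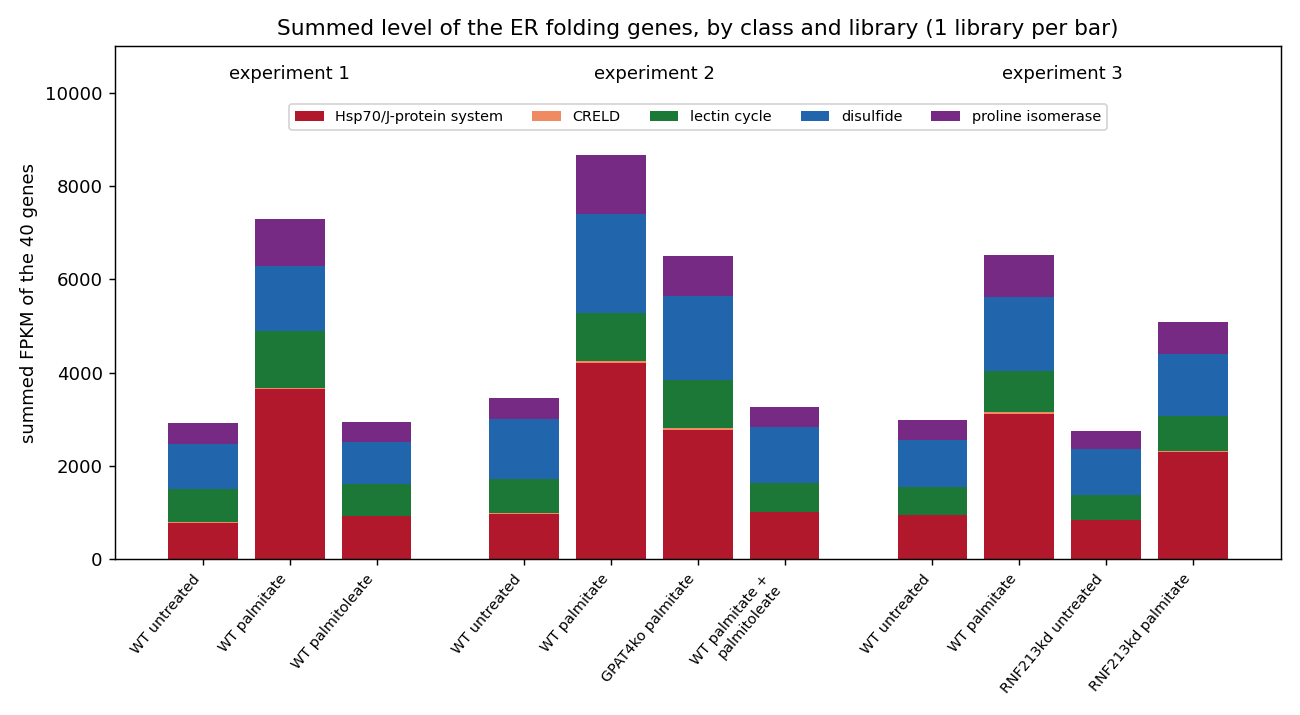
Summed FPKM of the 40 ER folding genes in each of the 11 libraries, stacked by class, with 1 library per bar and the 3 experiments set apart because each table was scaled separately. The wild-type palmitate bars reach 2.19 to 2.51 times the untreated bar of the same experiment, and the Hsp70 system makes up 47.8 to 50.1% of them.

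In untreated cells the most abundant of the 40 were CALR, PPIB, HSP90B1 and CANX, with geometric means over the 3 experiments of 389, 369, 307 and 257 FPKM, and the neighbours in this order have overlapping ranges. In all, 11 genes had a geometric mean of at least 100 FPKM and 12 lay under 10 FPKM, the lowest being ERO1LB at 1.52 FPKM. HSPA5, at 137 FPKM, was the tenth of the 40. Across the 40 genes the untreated level and the palmitate ratio had a Spearman rho of 0.0047, given as a description over genes that share libraries.

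Palmitate was compared with no treatment in wild-type cells in all 3 experiments, as 3 ratios within tables. On the log2(FPKM + 1) scale the largest mean rises among the 40 were those of DNAJB9, HSPA5, the gene of BiP, MANF and the oxidase ERO1LB. As powers of 2 those of DNAJB9 and HSPA5 were 8.69-fold and 8.40-fold, and the added 1 lowers such folds at low levels. With a pseudocount of 0.1 the mean log2 ratios of DNAJB9 and ERO1LB were 3.29 and 2.47, against 3.12 and 1.97. None of the transmembrane thioredoxin-like genes was called. Of the 40 genes, 20 rose and 0 fell at an adjusted p under 0.05 (limma, Benjamini-Hochberg over 11075 genes), beside 6.59% of all tested genes called higher and 3.84% called lower. At an unadjusted p under 0.05 the limma test called 3610 of all genes in either direction. The ratio was above 0 in all 3 experiments for 30 of the 40 genes, below 0 in all 3 for TMX2 and FKBP7, and mixed for 8. Of all 11075 tested genes, 2864 were above 0 in all 3 experiments and 3275 below 0 in all 3. The median log2 ratio was 0.95, 1.08 and 0.83 in experiments 1, 2 and 3, and the median of the 40 mean ratios was 0.92, while that of all tested genes was -0.06.

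**Figure D2:**
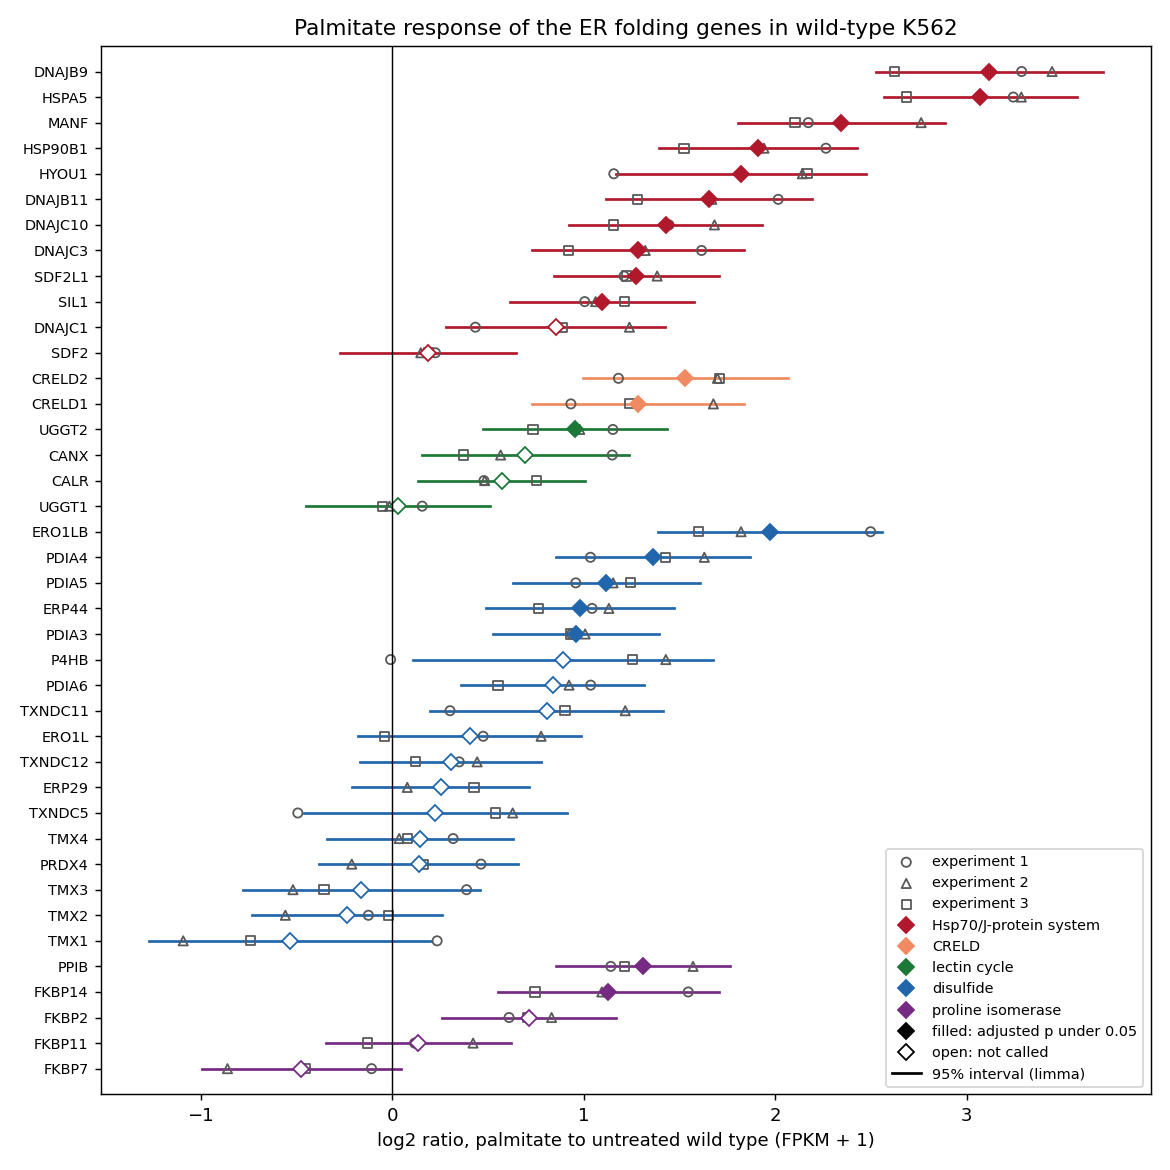
Log2 ratio of palmitate to untreated wild type on the log2(FPKM + 1) scale for the 40 genes, ordered by class and by mean. Open grey marks are the 3 experiments, diamonds their mean, filled where the adjusted p is under 0.05, and lines the 95% limma interval: 10 of 12 Hsp70-system diamonds are filled against 5 of 17 in the disulfide class.

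Within the Hsp70 system 10 of 12 genes rose, and the median ratio was 1.54. HSPA5, the gene of BiP, was at 132, 148 and 132 FPKM in the untreated libraries of experiments 1, 2 and 3 and at 1259, 1451 and 855 FPKM with palmitate. In each experiment the palmitate library was thus several times above the untreated library. The log2 ratio of HSPA5 was 3.07 ± 0.20, a rise at a limma adjusted p of 0.012. Here and below, ± follows the mean of the 3 experiments (n = 3) on the log2(FPKM + 1) scale. It gives the limma standard error, which shares spread between genes and is not the plain error of the 3 ratios. The HSPA5 stretch of promoter above holds an ERSE on the same strand as the gene, which lies at chr9:127997127-128003666 on hg19.

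DNAJB9, a J-protein of BiP that also restrains IRE1, was at 6.06, 4.73 and 8.62 FPKM untreated and at 67.9, 61.5 and 58.3 FPKM with palmitate. Its ratio, 3.12 ± 0.24, was the largest of the 40 (adjusted p = 0.012) although it is expressed at a small part of the level of HSPA5. With the trend on GC content removed, the mean ratio of DNAJB9 was 3.00, beside 3.02 for HSPA5. MANF, a small ER protein that binds BiP and can be secreted, was at 36.9, 23.3 and 37.1 FPKM and at 169.9, 164 and 163 FPKM with palmitate, and rose by 2.35 ± 0.22 (adjusted p = 0.0126). For both genes the palmitate library was far above the untreated library of the same experiment.

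HSP90B1, the ER member of the Hsp90 family (GRP94), was at 288, 271 and 373 FPKM untreated and at 1387, 1044 and 1073 FPKM with palmitate, and rose by 1.91 ± 0.21 (adjusted p = 0.0143). Untreated cells held less HSPA5 than HSP90B1 RNA per length, with ratios of 0.459, 0.546 and 0.355 in experiments 1, 2 and 3. With palmitate those ratios were 0.908, 1.39 and 0.797, so that HSPA5 gained on HSP90B1 in each experiment. HSP90B1 shares its listed locus with the microRNA gene MIR3652.

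HYOU1, a large Hsp70-like protein that exchanges nucleotide on BiP, was at 46.6, 55.6 and 36.2 FPKM untreated and at 105, 249 and 166 FPKM with palmitate. It rose by 1.82 ± 0.27 (adjusted p = 0.0234), and its ratio was 1.16 in experiment 1 against 2.14 and 2.17 in the others. SIL1, the other exchange factor of BiP in the group, rose by 1.09 ± 0.19 (adjusted p = 0.0317). It ranged from 8.88 to 9.84 FPKM untreated and from 19.3 to 21.9 FPKM with palmitate, over experiments that were scaled separately.

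Among the other J-proteins, DNAJB11, which delivers secretory clients to BiP, was at 43.9, 56.8 and 66.0 FPKM and at 181, 183 and 162 FPKM with palmitate, and rose by 1.65 ± 0.22 (adjusted p = 0.0196). DNAJC10, a J-protein with disulfide reductase activity, rose by 1.43 ± 0.20, and DNAJC3, which was first known as an inhibitor of kinases of eIF2alpha, rose by 1.29 ± 0.23 (adjusted p = 0.0226 and 0.0309). DNAJC1, a J-protein of the ER membrane, had a ratio of 0.85 ± 0.23 that missed the threshold (adjusted p = 0.0681), with 0.43, 1.24 and 0.89 in experiments 1, 2 and 3. The J-proteins therefore spanned ratios from 0.85 to 3.12.

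SDF2L1 and SDF2 are related proteins that keep clients of the BiP and DNAJB11 complex soluble. SDF2L1 was at 121, 310.0 and 191 FPKM untreated and at 281, 811 and 448 FPKM with palmitate, and rose by 1.27 ± 0.18 (adjusted p = 0.0214). Its level differed between the experiments, which were scaled separately, with the palmitate library of experiment 1 below the untreated library of experiment 2. Its 3 ratios lay between 1.21 and 1.38. SDF2 was at 34.2, 43.0 and 26.1 FPKM and at 40.1, 47.8 and 29.9 FPKM, with a ratio of 0.19 ± 0.19 (adjusted p = 0.519).

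Both CRELD genes, which encode cysteine-rich ER proteins with EGF-like domains, rose. CRELD2, the soluble form, was at 4.80, 7.63 and 6.14 FPKM untreated and at 12.2, 27.0 and 22.4 FPKM with palmitate, and rose by 1.53 ± 0.22 (adjusted p = 0.0222). CRELD1, the membrane-anchored form, was at 3.35, 3.88 and 3.38 FPKM and at 7.31, 14.6 and 9.34 FPKM, and rose by 1.28 ± 0.23 (adjusted p = 0.031). In each gene the palmitate library was above the untreated library of the same experiment.

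In the lectin cycle 1 of 4 genes rose, with a median ratio of 0.63. CALR, the soluble lectin calreticulin and the most abundant of the 40 in untreated cells, was at 400.3, 486 and 303 FPKM untreated and at 558, 679 and 511 FPKM with palmitate. CANX, its membrane-bound relative calnexin, was at 285, 220.5 and 268 FPKM and at 634, 327 and 347 FPKM. Their ratios, 0.57 ± 0.18 and 0.70 ± 0.22, were above 0 in all 3 experiments and missed the threshold (limma adjusted p = 0.0893 and 0.0927). With the trend on GC content removed, both passed it, at ratios of 0.69 and 0.62. That fit called 14.4% of all its genes higher.

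The glucosyltransferases UGGT1 and UGGT2, which tag misfolded glycoproteins for another round with the lectins, differed in their values. UGGT2 was at 2.89, 2.57 and 3.03 FPKM untreated and at 7.65, 6.04 and 5.71 FPKM with palmitate, and rose by 0.96 ± 0.20 (adjusted p = 0.0414). UGGT1, the more abundant of the pair, was at 21.6, 11.5 and 13.4 FPKM and at 24.2, 11.3 and 12.9 FPKM, with a ratio of 0.03 ± 0.19 (95% interval -0.45 to 0.51).

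Of the 17 genes of the disulfide class 5 rose and 0 fell, and their median ratio was 0.40. ERO1LB, an oxidase that passes electrons from the isomerases to oxygen, was at 1.62, 1.16 and 1.89 FPKM untreated and at 13.8, 6.63 and 7.76 FPKM with palmitate, and rose by 1.97 ± 0.24 (adjusted p = 0.0176). It went from the lowest level of the 40 to a level near that of its relative ERO1L in experiment 1. ERO1L was at 12.9, 9.80 and 17.0 FPKM and at 18.3, 17.5 and 16.5 FPKM, with ratios of 0.48, 0.78 and -0.04 (adjusted p = 0.285).

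PDIA4, an isomerase with several thioredoxin domains (ERp72), was at 79.2, 72.6 and 72.9 FPKM untreated and at 163, 227 and 198 FPKM with palmitate, and rose by 1.36 ± 0.21 (adjusted p = 0.0242). PDIA5 rose by 1.12 ± 0.20, ERP44, which retains ERO1 and unassembled clients, by 0.98 ± 0.20 and PDIA3, the partner of the lectins, by 0.96 ± 0.18 (adjusted p = 0.0314, 0.0411 and 0.0329). The 3 ratios of PDIA3 lay between 0.93 and 1.01. Its listed locus also spans SERF2 and SERINC4, so reads of these genes may not be fully separated.

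P4HB, the founding protein disulfide isomerase, was at 141, 200.5 and 109 FPKM untreated and at 140.4, 542 and 263 FPKM with palmitate. Experiments 2 and 3 gave ratios of 1.43 and 1.26 and experiment 1 gave -0.01, so that the mean of 0.89 ± 0.32 missed the threshold (adjusted p = 0.118). TXNDC5, another isomerase, had the same order, with -0.49, 0.63 and 0.54. The listed locus of TXNDC5 spans 7 other genes, among them a read-through gene of MUTED and TXNDC5. The most abundant of the 7 had a mean of 383 FPKM, against 55.8 FPKM for TXNDC5, so reads may not be fully separated. In experiment 1 the ratio of all genes fell with transcript GC content (Spearman rho = -0.63 over 10623 genes, against -0.02 and 0.15 in experiments 2 and 3), and the transcripts of P4HB and TXNDC5 hold 56.6% and 51% GC against a median of 47.6%. With that trend removed the ratio of P4HB in experiment 1 was 0.52 and its mean of 1.05 passed the threshold, while TXNDC5 stayed at -0.29 in experiment 1.

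PDIA6, whose promoter holds an ERSE, was at 124, 157 and 167 FPKM untreated and at 256, 298 and 245 FPKM with palmitate, with a ratio of 0.84 ± 0.19 just beyond the threshold (adjusted p = 0.0503). TXNDC11 had 0.81 ± 0.25 (adjusted p = 0.0874). Lower ratios were measured for TXNDC12 (0.30), for ERP29, a relative without a redox-active site (0.25), and for PRDX4, a peroxiredoxin that oxidises the isomerases with peroxide (0.14), with adjusted p-values from 0.316 to 0.682.

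The 4 TMX genes encode thioredoxin-like proteins anchored in the ER membrane, and none was called. TMX1 was at 21.1, 18.6 and 26.8 FPKM untreated and at 25.0, 8.22 and 15.6 FPKM with palmitate, higher in experiment 1 and lower in experiments 2 and 3, with a mean of -0.53 ± 0.30 (adjusted p = 0.27). The means of TMX2, TMX3 and TMX4 were -0.23, -0.16 and 0.14. The locus of TMX2 spans that of CTNND1 and their read-through gene.

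Among the proline isomerases 2 of 5 rose, with a class median of 0.72. PPIB, the ER cyclophilin that also helps collagen fold, was at 396, 379 and 333 FPKM untreated and at 875, 1129 and 774 FPKM with palmitate, and rose by 1.31 ± 0.18 (adjusted p = 0.0219). FKBP14 was at 7.52, 7.83 and 7.60 FPKM and at 23.9, 17.9 and 13.4 FPKM, and rose by 1.13 ± 0.23 (adjusted p = 0.0427). In both the palmitate library lay above the untreated library of the same experiment.

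The other 3 FKBP genes were not called. FKBP2 was at 59.9, 69.1 and 68.2 FPKM untreated and at 92.0, 124 and 112 FPKM with palmitate, with ratios of 0.61, 0.83 and 0.71 (mean 0.72 ± 0.18, adjusted p = 0.0621). FKBP7 was at 3.09, 1.52 and 2.51 FPKM and at 2.80, 0.388 and 1.56 FPKM, lower with palmitate in each experiment (mean -0.47 ± 0.21, adjusted p = 0.182), and its listed locus spans 7 other genes. FKBP11, at 1.22 to 4.30 FPKM over all libraries, had ratios of 0.12, 0.42 and -0.13. The FKBP class thus held values on both sides of 0.

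The test rests on 3 ratios and on a spread shared between genes. Without experiment 1, and likewise without experiment 3, limma called 0 of the 40 genes and 0 of all tested genes. At an unadjusted p under 0.05 these limma fits held 30 and 21 of the 40, and 4474 and 2330 of all 11075 genes. Without experiment 2 limma called 13 of the 40 higher, beside 5.41% of all tested genes. That fit held 22 of the 40 and 2048 of all genes at an unadjusted p under 0.05. Its smallest limma adjusted p was 2.8e-138, against 0.0098 with all 3 experiments. With 2 ratios per gene such a value is not credible, so these 13 calls are not read as support. The order of the 40 genes by ratio was most alike between experiments 2 and 3, with a Spearman rho of 0.95, against 0.78 for experiments 1 and 2 and 0.74 for experiments 1 and 3, given as descriptions over genes that share libraries.

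Related genes within a class took different values side by side. The ratio of SDF2L1 exceeded that of SDF2 by 0.98, 1.23 and 1.04 in experiments 1, 2 and 3, UGGT2 exceeded UGGT1 by 1.00, 0.99 and 0.79, and ERO1LB exceeded ERO1L by 2.02, 1.04 and 1.64. In these pairs the difference had the same sign in all 3 experiments, for which the smallest p that an exact two-sided sign permutation can give is 0.25. CRELD2 and CRELD1 differed by 0.25, 0.02 and 0.47, and CANX and CALR by 0.67, 0.08 and -0.38. In the pairs of UGGT and ERO1 genes the larger ratio belonged to the less abundant gene, and in the SDF2 pair to the more abundant gene.

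**Figure D3:**
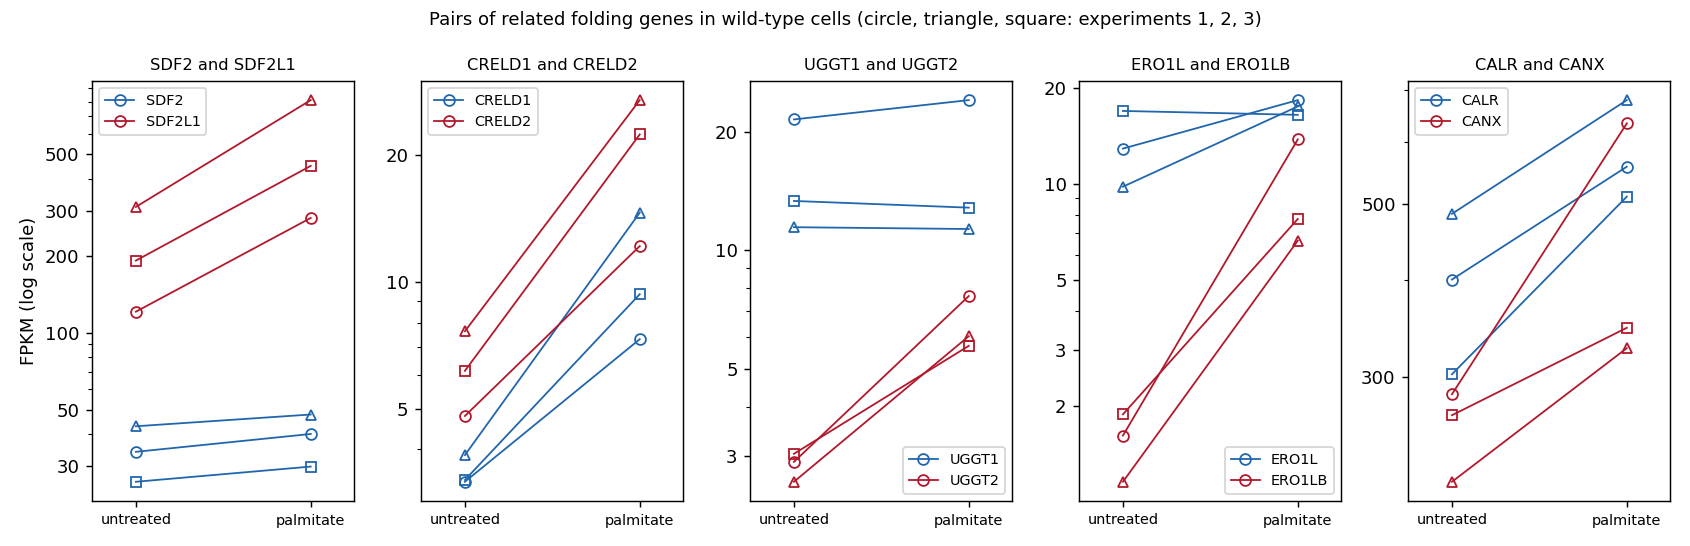
FPKM on a log scale of 5 pairs of related folding genes in the untreated and palmitate libraries of wild-type cells, with a line for each experiment. SDF2L1, UGGT2 and ERO1LB have steeper lines than SDF2, UGGT1 and ERO1L in all 3 experiments, and the lines of CALR and CANX change order between experiments.

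The promoter matches were set beside these ratios. Of the 7 genes with an ERSE, HSPA5, HSP90B1, ERO1LB and CRELD2 rose and CALR, CANX and PDIA6 had ratios of 0.57, 0.70 and 0.84 without passing the threshold. Their median ratio was 1.53, against 0.85 in the 30 matched genes without one, of which 14 rose. HYOU1 and SDF2L1, the 2 with ERSE-II, both rose. Genes with CCAAT in the window had a median of 1.28, with 16 of 25 called, and those without it a median of 0.22, with 2 of 12 called. These 25 include all 7 genes with an ERSE. Of all tested genes 6.59% were called higher, a share that was not split by CCAAT. Whether the motifs bear on the ratios was not tested. DNAJB9 and MANF, with 2 of the 3 largest ratios on the log2(FPKM + 1) scale, held neither full element in this window. With a pseudocount of 0.1 the ratio of ERO1LB, which holds an ERSE, was 2.47, above that of MANF at 2.38. Outside the group, 18 promoters held an ERSE, 8 of them of tested genes, and 4 of these 8 rose with palmitate (FICD, SERP1, TRIM5 and XBP1). ERSE-II stood in 16 promoters outside the group, 9 of them of tested genes, of which 1 rose (HERPUD1), 0 fell, and GYS1 and RUVBL2 had ratios of -0.90 and -1.01 (adjusted p = 0.0791 and 0.0621). The genes in these last sentences are named after their values were seen, apart from XBP1 and HERPUD1.

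Other genes of the same compartment gave context. Of 34 tested other ER folding genes, 11 rose and 0 fell, with a median of 0.57, led by SELM (2.46), NUCB2 (2.28), HSPA13 (2.07), SELK (1.99), CLGN, a relative of calnexin (1.96), and P4HA2, a collagen prolyl hydroxylase subunit (1.68). Of 14 regulators of ER stress, 10 rose and 0 fell. HERPUD1, which serves ER-associated degradation, rose by 3.21, DDIT3, the gene of CHOP, by 3.04, EIF2AK3 by 1.84, ERN1 by 1.67, XBP1 by 1.33 and ATF4 by 1.30. ATF6 had a ratio of 0.37 (adjusted p = 0.244). Of 25 tested genes of ER-associated degradation 8 rose and 0 fell, with a median of 0.76.

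Chaperones outside the ER had other values. Of 35 cytosolic chaperone genes 1 rose and 3 fell, with a median of -0.51, and of 19 mitochondrial chaperone and protease genes 0 rose and 1 fell, with a median of -0.24. The median of all tested genes was -0.06. Thus the share of genes called higher was 50% in the 40 ER folding genes, 32.4% in the other ER folding genes and 2.86% in the cytosolic chaperones, given as a description of lists that were chosen by function.

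**Figure D4:**
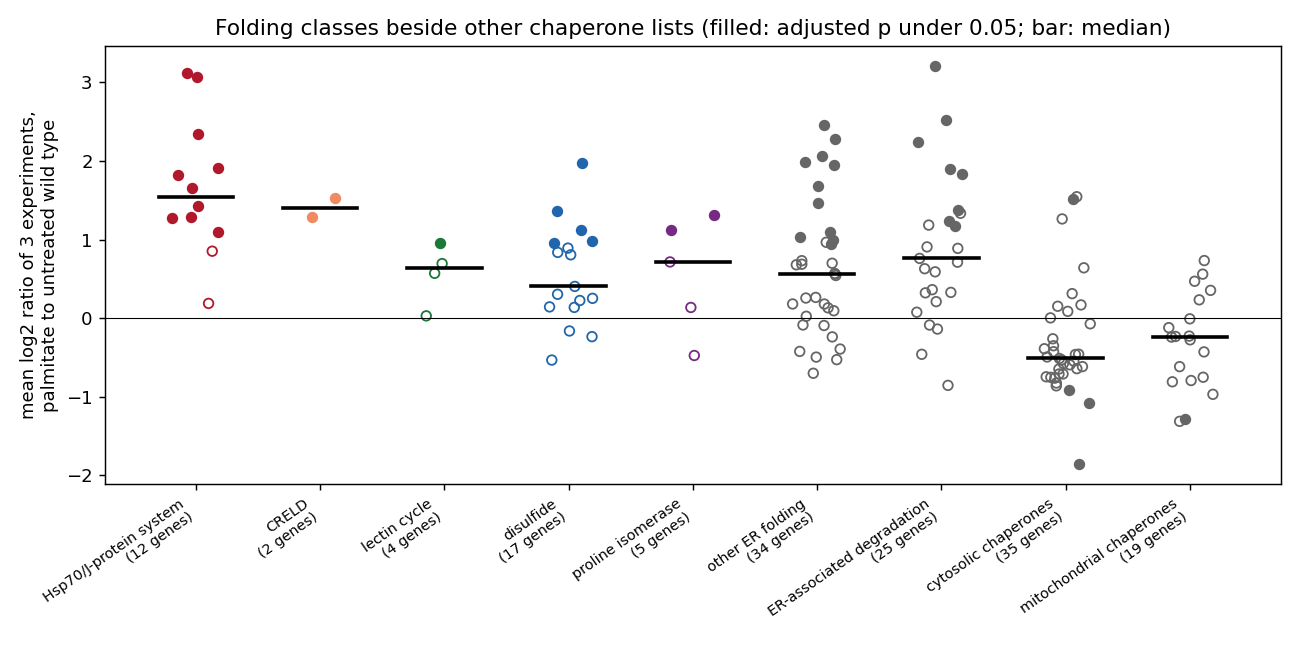
Mean log2 ratio of palmitate to untreated wild type over 3 experiments for each gene (points, filled where the limma adjusted p is under 0.05), by folding class and by 4 other lists, with the median as a bar. The Hsp70 system has the highest median (1.54) and the cytosolic chaperones the lowest (-0.51).

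Palmitoleate alone was compared with untreated and with palmitate-treated cells in experiment 1, where it has 1 library. HSPA5 was at 132 FPKM untreated, at 1259 FPKM with palmitate and at 170.1 FPKM with palmitoleate, and DNAJB9 at 6.06, 67.9 and 11.5 FPKM. HSP90B1 was at 288, 1387 and 379.8 FPKM, and MANF at 36.9, 169.9 and 34.0 FPKM. The palmitoleate values of these 4 genes lay far below those with palmitate. DNAJB9 was also above its untreated value, with a log2 ratio of 0.82 (95% limma interval -0.20 to 1.85), the largest of the 40 against untreated cells.

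Against untreated cells, 0 of the 40 genes were at least 2-fold higher with palmitoleate (0.605% of all tested genes were) and 2 were at least 2-fold lower (6.6% of all). These 2 were P4HB, at -1.08 on the log2 scale, and TXNDC5, at -1.35, and the median of the 40 was 0.11, against 0.01 for all tested genes. The ratio fell with transcript GC content over all genes (Spearman rho = -0.75) and over the 40 alike (-0.75), and with that trend removed P4HB was at -0.58 and TXNDC5 at -1.15. The part of GC content in these values, and that of the shared locus of TXNDC5, was not tested further.

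Against palmitate, 18 of the 40 genes were at least 2-fold lower with palmitoleate (4.66% of all tested genes) and 0 were at least 2-fold higher (1.25% of all), with a median of -0.88 against 0.02 for all tested genes. They included 9 of the 12 Hsp70-system genes, both CRELD genes, 5 of the 17 disulfide genes and 2 of the 5 proline isomerases, and none of the lectin genes. HSPA5 was lower by a log2 ratio of -2.88 (95% limma interval -3.75 to -2.01), DNAJB9 by -2.46 (-3.49 to -1.44) and MANF by -2.29 (-3.22 to -1.35). The interval lay below 0 for 20 of the 40 genes. It borrows the spread of the wild-type palmitate ratios between experiments, and after adjustment limma called 0 of the 40 in either comparison (smallest adjusted p = 0.195 against palmitate and 0.80 against untreated; of all genes, 558 and 268 had an unadjusted p under 0.05). With small RNA genes and the SNAR family left out of the fit, HSPA5 was called lower against palmitate, 1 of the 40 beside 0.101% of 10873 genes, and 0 of the 40 were called against untreated, where no gene was. Both comparisons use the same palmitoleate library.

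When palmitoleate was given together with palmitate in experiment 2, none of the 40 genes was at least 2-fold higher or lower than in untreated cells on the log2(FPKM + 1) scale, DNAJB9 having the largest ratio. HSPA5 was at 148 FPKM untreated, at 1451 FPKM with palmitate and at 173 FPKM with both, and HSP90B1 at 271, 1044 and 283 FPKM. DNAJB9 was at 4.73, 61.5 and 9.42 FPKM. The summed level of the group with both fatty acids was 0.943 times that of untreated cells.

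Against untreated cells, 0 of the 40 genes were at least 2-fold higher (1.12% of all tested genes) and 0 at least 2-fold lower (0.578% of all), and the median ratio was 0.03, against -0.02 for all tested genes. DNAJB9 had the largest ratio of the 40, 0.86 (95% limma interval -0.16 to 1.89), and that of HSPA5 was 0.22 (-0.65 to 1.10). The interval of HSPA5 reaches past a 2-fold rise.

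Against palmitate alone, 21 of the 40 genes were at least 2-fold lower with both fatty acids (10.2% of all tested genes) and 2 at least 2-fold higher (9.22% of all), and the median was -1.06, against 0.04 for all tested genes. The lower ones were 10 of 12 Hsp70-system genes, both CRELD genes, 7 disulfide genes and 2 proline isomerases. HSPA5 was at a ratio of -3.06 (95% interval -3.94 to -2.19), MANF at -2.38, P4HB at -1.59 and PPIB at -1.70. The 2 higher ones were TMX1 (1.16) and FKBP7 (1.28), which had the lowest palmitate ratios in experiment 2, a comparison that shares the palmitate library. Limma called 0 of the 40 against palmitate (smallest adjusted p = 0.147) and 0 against untreated (smallest adjusted p = 1), and 1967 and 136 of all genes had an unadjusted p under 0.05. With small RNA genes and the SNAR family left out of the fit it called 12 of the 40 lower and 0 higher against palmitate, beside 3.83% and 1.81% of 10873 genes, among them HSPA5, HSP90B1, DNAJB9, MANF, PDIA4 and PPIB.

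**Figure D5:**
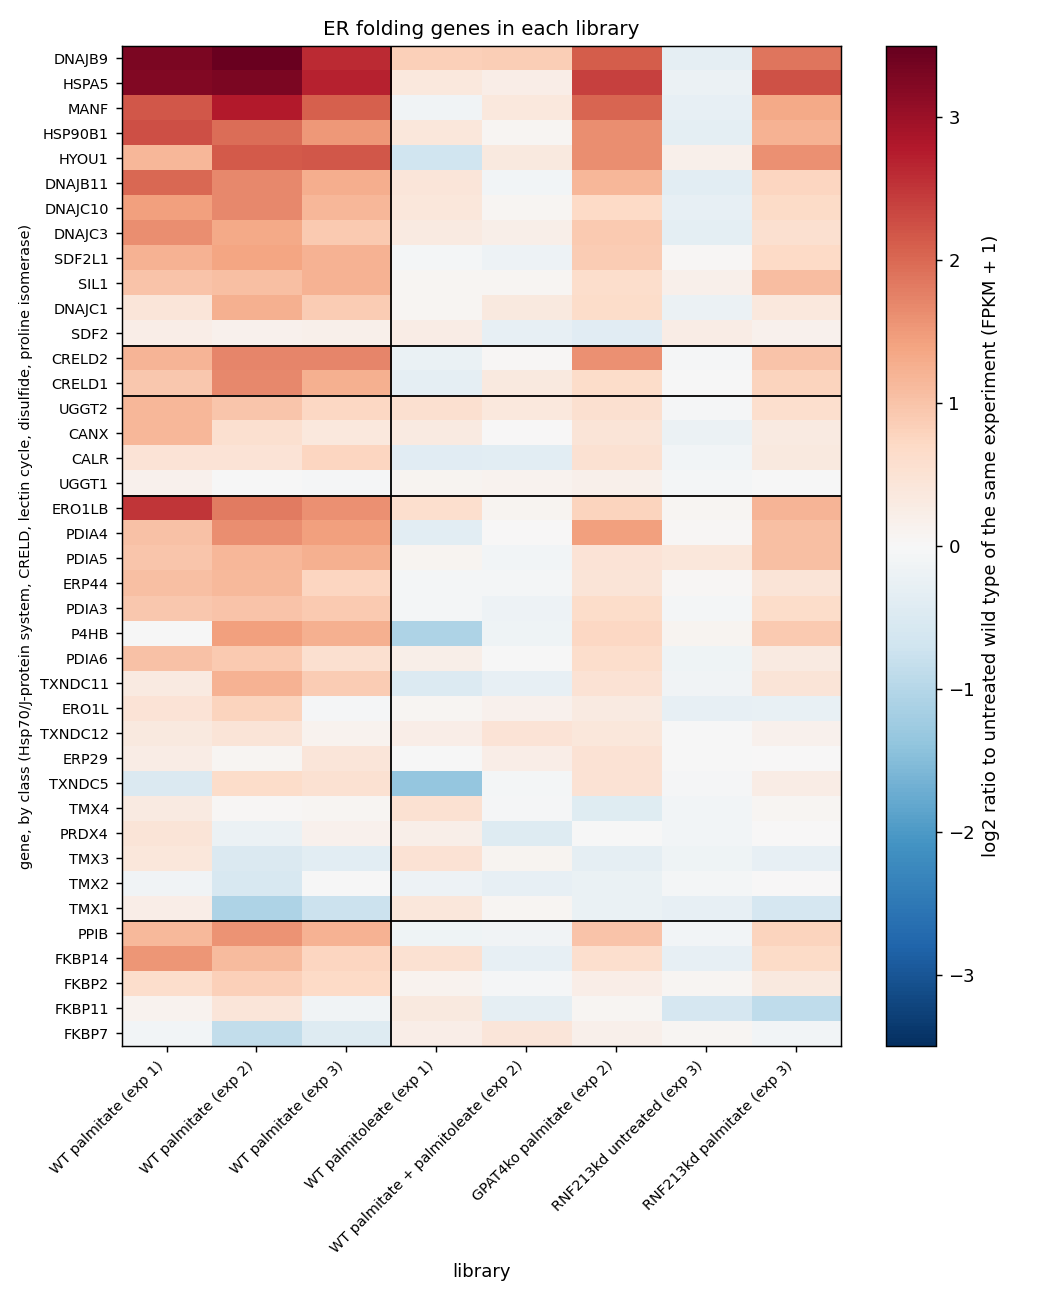
Log2 ratio of each library to the untreated wild-type library of its own experiment, on the log2(FPKM + 1) scale, for the 40 genes ordered as in the plot of palmitate ratios, with lines between classes. The 3 wild-type palmitate columns are red over the Hsp70 system, and the columns of palmitoleate and of both fatty acids hold no ratio above 0.86. For HSPA5 and DNAJB9 the knockout and knockdown columns with palmitate lie between them. For others, such as ERP29 in the knockout and FKBP11 in the knockdown, they do not.

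GPAT4 knockout cells with palmitate were compared with wild-type cells with palmitate in experiment 2. HSPA5 was at 1451 FPKM in wild type and at 784 FPKM in the knockout, DNAJB9 at 61.5 and 23.8 FPKM, and CRELD1 at 14.6 and 6.67 FPKM. The summed level of the group was 0.75 times that of wild type, with 0.66 for the Hsp70 system, 0.848 for the disulfide class and 1.00 for the lectin cycle. Most of the genes, 32 of 40, were lower in the knockout, with a median of -0.46. Of all 11075 tested genes 5854 were higher in the knockout, with a median of 0.04.

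By the 2-fold rule 3 of the 40 genes were lower in the knockout, beside 8.06% of all tested genes, and 1 was higher, beside 7%. The lower ones were DNAJB9 at -1.33 (95% limma interval -2.36 to -0.31), ERO1LB at -1.06 (-2.07 to -0.04) and CRELD1 at -1.02 (-1.98 to -0.06), and the higher one was FKBP7 at 1.04 (0.14 to 1.93). The share of the 40 past 2-fold is near that of all genes. HSPA5 stood at -0.89 (-1.76 to -0.02), and CRELD2 and CALR at -0.10 and 0.06. Limma called 0 of the 40 (smallest adjusted p = 0.341, with 1434 of all genes at an unadjusted p under 0.05). The untreated knockout library was not analysed here, so a palmitate response within the knockout was not computed, and a lower response and a lower starting level cannot be told apart.

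RNF213 knockdown was compared with wild type in experiment 3, where each state has 1 library. Without palmitate HSPA5 was at 132 FPKM in wild type and at 115 FPKM in the knockdown, and HSP90B1 at 373 and 293 FPKM. None of the 40 genes was 2-fold higher or lower in untreated knockdown cells (0.46% and 0.379% of all tested genes were), and the median was -0.08, against 0.03 for all tested genes. The largest difference was that of FKBP11, at -0.59, a gene near the expression limit used here.

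With palmitate the knockdown cells held 619 FPKM of HSPA5 against 855 FPKM in wild type, 34.0 against 58.3 FPKM of DNAJB9 and 95.1 against 163 FPKM of MANF. Of the 40 genes 34 were lower than in wild type, with a median of -0.33, while 6131 of all 11075 tested genes were higher, with a median of 0.03. Of the 40, 0 passed 2-fold in either direction (0.551% of all tested genes were higher and 0.804% lower). The ratio was -0.77 for MANF (95% limma interval -1.70 to 0.17), -0.76 for DNAJB9 and -0.46 for HSPA5. All 12 genes of the Hsp70 system were on the lower side.

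Within the knockdown, HSPA5 and DNAJB9 also had the largest palmitate ratios of the 40. HSPA5 had a ratio of 2.41 (95% limma interval 1.54 to 3.29), DNAJB9 2.18 (1.16 to 3.21), MANF 1.62 and HSP90B1 1.57. In all, 9 of the 40 genes were at least 2-fold higher (2.74% of all tested genes) and 0 at least 2-fold lower (0.704% of all): 6 of the Hsp70 system, CRELD2, PDIA4 and ERO1LB. The median of the 40 was 0.60, against 0.83 in wild type of the same experiment, and that of all tested genes was -0.03. The interval lay above 0 for 12 genes.

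The palmitate response of the knockdown minus that of wild type in experiment 3 was below 0 for 29 of the 40 genes. The median of the 40 was -0.25. Of all 11075 tested genes 5481 were above 0 in this difference, with a median of 0. Of the 40, 0 passed 2-fold in either direction (0.704% of all tested genes were higher and 1.54% lower). The difference was -0.76 for HYOU1 (95% limma interval -2.36 to 0.84), -0.68 for CRELD2, -0.27 for HSPA5 and 0.05 for HSP90B1. Every interval among the 40 held 0. Set beside all 3 wild-type ratios, the knockdown ratio was below the lowest for 23 genes, within their range for 16 and above the highest for 1. The same counts were not made over all tested genes, so they are not read as a trait of the 40. In the 4 comparisons that involve the knockdown limma called 0 of the 40 genes (smallest adjusted p = 0.198 within the knockdown and 1 in the others, with 302 of all genes at an unadjusted p under 0.05 within the knockdown, 65 untreated, 88 with palmitate and 61 for the difference). With small RNA genes and the SNAR family left out, HSPA5 was called higher with palmitate within the knockdown, 1 of the 40 beside 0.0736% of 10873 genes, and no gene was called in the other 3 comparisons. The comparisons of knockdown with wild type set 1 library against 1 library, and they share libraries with each other.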

How the data were processed

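Messenger RNA of K562 cells was sequenced by the authors from pooled triplicates (stranded libraries, paired ends), mapped to hg19 with TopHat2 and quantified with Cuffdiff, per the labels and the submitters' processing notes, which name no versions. The authors deposited FPKM per gene and library, scaled by Cuffdiff within each of 3 tables, so ratios were formed only within a table. Left out were 2 libraries whose names are not in the labels. The labelled untreated GPAT4 knockout was not analysed here.

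Values were taken as log2(FPKM + 1). The 3 wild-type palmitate ratios entered limma (version 3.58.1, R 4.3.3), with a trend of the spread on intensity, as a test of a mean of 0. The 11075 genes whose mean reached 1 FPKM were tested, and an adjusted p under 0.05 (Benjamini-Hochberg) was a call. Forming ratios pairs the libraries by experiment: deviations of untreated and palmitate libraries of 1 experiment correlated at 0.458, 0.634 and 0.696, and those of different experiments at -0.526 to 0.011. Comparisons of 2 libraries were counted at 2-fold, with 95% limma intervals that borrow the wild-type spread (2 residual and 3.86 prior degrees of freedom). The test was tried on simulated ratios.

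Named are all 40 genes, the 6 other ER folding genes with the largest called ratios, 7 stress regulators and 5 pairs of related genes. The genes and lists were chosen with earlier results of these data known. GC content came from GRCh37 transcripts, for 95.9% of tested genes, and promoters from RefSeq on GRCh38.p14. The figures were drawn with matplotlib 3.10.9. Alternatives were another pseudocount, other filters, centring, no replicate block, no intensity trend, small RNA and SNAR genes left out, a GC trend removed, each experiment left out and a 1.5-fold threshold. The combination of the small RNA and GC settings was chosen after the data were seen.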

Additional observations from a re-analysis of the deposited data

Results flagged for a closer look

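SDF2 and TMX2 stood out because their palmitate ratio in the RNF213 knockdown had the opposite sign to all 3 wild-type experiments. For SDF2, which helps keep clients of BiP soluble, the log2 ratio was -0.118 in the knockdown and 0.23, 0.15 and 0.19 in wild type. For TMX2, a thioredoxin-like protein of the ER membrane, it was 0.0602 in the knockdown and -0.12, -0.56 and -0.02 in wild type. The knockdown has 1 ratio, the opposite signs themselves were not tested, and the limma intervals of the knockdown minus wild type held 0 for both genes.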

How the results depend on the processing

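Precision rests on the spread between 3 experiments, and depth is unknown. In wild type with palmitate, limma called 0 genes higher, 0 lower and 0 of the 40 with no filter on level. At an unadjusted p under 0.05 that limma fit held 26 of the 40 and 3905 of 23153 genes. With no replicate block, so without the pairing by experiment, limma called 262 higher, 52 lower and 10 of the 40. Without small RNA and SNAR genes it called 1233 higher and 1206 lower, with the GC trend removed 1525 and 1439, and with both 1711 and 1723. In the last 2 settings 2 of the 40, TMX1 and FKBP7, were called lower. Leaving out 1 experiment gave 0 to 599 genes higher, 0 to 291 lower and 0 to 13 of the 40 higher. The 0 belong to the fits without experiment 1 and without experiment 3. The 599, 291 and 13 belong to the fit without experiment 2, whose calls are not read as support. Apart from the 10 of the 40 lost without the pairing, no call among the 40 changed with it. The log2 ratio crossed 0 in some of these refits for 4 uncalled genes: UGGT1 ranged from -0.033 to 0.071, PRDX4 from -0.025 to 0.31, TMX3 from -0.44 to 0.016 and FKBP11 from -0.0058 to 0.27. Of the 20 uncalled genes, DNAJC1, CALR, CANX, PDIA6, P4HB, TXNDC11 and FKBP2 were called higher with the GC trend removed. The cause was not tested.

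The percentages that follow are the shares of all tested genes past the same threshold. At 1.5-fold, palmitoleate against untreated had 2 of the 40 higher (6.23%), DNAJB9 and ERO1LB, and 3 lower (18.5%), HYOU1, P4HB and TXNDC5. Both fatty acids against untreated had 1 higher (3.96%), DNAJB9, and 0 lower (1.83%). The GPAT4 knockout had 2 higher (18.7%) and 12 lower (16.4%). The RNF213 knockdown had 0 higher (2.58%) and 1 lower (1.07%) untreated, and 0 higher (2.39%) and 4 lower (3.06%) with palmitate. The palmitate response within it had 21 higher (7.14%) and 0 lower (3.83%), and its difference from wild type 0 higher (3.4%) and 2 lower (7.23%). The counts from here on are at 2-fold again, and no shares of all genes are given for them. With the GC trend removed, palmitoleate against untreated had 1 of the 40 lower. With a mean of at least 5 FPKM, both fatty acids against palmitate had 1 higher. The GPAT4 knockout had 0 higher in that setting, as it did with centred ratios. With a pseudocount of 0.1 the RNF213 knockdown with palmitate had 1 lower than wild type with palmitate.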
